A study of Drosophila melanogaster with 18 samples.

Results

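The genes described here are 9 that set the shape, movement and removal of mitochondria: Marf and Opa1 for fusion, Drp1 and Fis1 for fission, Miro and milt for transport, and Pink1, park and Mul1 for mitophagy. They were chosen by name, and their probe sets were found by current or platform symbol, which gave 8 genes with 11 probe sets out of 11981 genes with a probe set of a single symbol. The 9th gene, park, has no probe set under its name in the platform table. Its probe set was named only through the study's lists of genes that passed thresholds against the control in these same arrays, so park is kept apart, and its differences from the control are given without a test.

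Mitochondria fuse and divide continuously, and the balance of these processes sets their shape and mixes their contents. In neurons they also travel along microtubules to reach axons and synapses. Damaged mitochondria can be marked with ubiquitin and taken up by autophagy, a route called mitophagy in which the kinase Pink1 and the ubiquitin ligase Parkin are central and which has been studied intensely in Drosophila because loss of either human gene causes inherited Parkinson's disease.

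The data are 18 Affymetrix arrays, 3 for each of 6 genotypes, hybridised with RNA from the complete CNS of Drosophila melanogaster larvae of the third instar (wandering stage), with 20 larvae per sample. All larvae carried the pan-neuronal driver nSyb-Gal4 and were raised at 25 degrees. The control (nsybGal4/+) carried the driver alone, and the other genotypes carried in addition UAS-TFAM3M (TFAM o/e), UAS-Pnt RNAi JF02227 (Pnt RNAi), UAS-Aop RNAi 3166R1 (Aop RNAi), or UAS-TFAM3M with one of the RNAi transgenes (written TFAM o/e, Pnt RNAi, or TFAM o/e, Aop RNAi). TFAM is the mitochondrial DNA-binding protein whose overexpression was used to disturb mitochondria in neurons, and Pnt and Aop are ETS transcription factors of the Ras-ERK pathway. The comparisons ask whether the transcripts of these genes differed with TFAM overexpression, and whether knock-down of either factor altered them. The age of the larvae is known as a stage only, the driver acts in neurons while the RNA came from the whole CNS, and fewer cells of a type cannot be told apart from less RNA per cell.

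Levels are deposited log2 signals, and a difference of 1 is a doubling. Levels are compared between genotypes for 1 probe set, never between genes. A difference was called where limma's adjusted p was under 0.05 over all 18769 probe sets tested. Whether the arrays of genotypes overlapped is given as a description only. The share of all probe sets without overlap was not counted, so a lack of overlap is no result about a gene. The TFAM probe set was at 10.49 to 10.76 in the control arrays and at 12.04 to 12.12 in the TFAM o/e arrays. The pnt probe set, named by the same route as park, lay at 9.34 to 9.66 in the arrays labelled Pnt RNAi, above the 7.95 to 8.69 of the control arrays, and aop was at 10.56 to 10.92 in the arrays labelled Aop RNAi against 10.62 to 10.71 in the control. Within these arrays, directions given for Pnt RNAi and Aop RNAi therefore rest on the labels. For the same RNAi lines, the study reported a nearly complete loss of PntP2 and Aop protein in larval eye discs, with another driver. The defining markers of neurons, glia and neuroblasts were present. The log2 of their summed signals, in which the brightest marker weighs most, spanned 12.2 to 12.8, 13.4 to 14.0 and 11.6 to 12.2 over the arrays. Markers of tissues that can accompany a dissected CNS varied far more, at 9.94 to 13.4 for ring gland, 10.5 to 13.9 for fat body and 9.20 to 13.7 for salivary gland, and their part in the differences was not tested. Control replicate 3 stood apart: its median correlation with the other arrays was 0.948, and its 6 testis markers summed to a log2 signal of 12.1 against 8.44 and 7.76 in the other control arrays. It had the lowest ring gland and salivary gland sums of all arrays. The highest testis sum of a genotype was in its replicate 3 for 5 of the 6 genotypes.

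No gene among the 8 was called in any comparison. In the F test of limma over the 6 genotypes, 0 of 8 passed, and 0.783% of all probe sets did. Against the control, 0 of 8 passed with TFAM o/e (0.181% of all probe sets), Pnt RNAi (0.293%) or Aop RNAi (0.176%). The same held for both combinations, TFAM o/e, Pnt RNAi (0.325%) and, with the other hairpin, TFAM o/e, Aop RNAi (0.229%). It was also found when Pnt RNAi or Aop RNAi was added to TFAM o/e (0.16% and 0.0959%), and when TFAM o/e was added to Pnt RNAi or Aop RNAi (0.139% and 0.208%). No gene passed for the interaction of TFAM o/e with Pnt RNAi (0.0266%) or Aop RNAi (0.0533%), nor for TFAM o/e averaged over its 3 backgrounds (0.543%). The test of the study's methods, a one-way analysis of variance, gave 0 calls after adjustment as well. The study itself used p under 0.05 with 1.5-fold and states no adjustment. At those thresholds, by limma's unadjusted p and by that test, 1 of 8 genes passed when Pnt RNAi was added to TFAM o/e. It was Mul1, and 3.75% of all probe sets passed there by limma. In the other pairs 0 of 8 passed.

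Most differences were small. Of the 72 differences of the 8 genes over the 9 pairs of genotypes, 55 were under 0.2 on the log2 scale, and for 61 the 95% interval lay within 1.5-fold either way. An unadjusted limma p under 0.05 was reached by 6 of the 72, beside 5.76% of all probe sets over the same pairs, and the test of the study's methods also gave 6. A single one of the 6 exceeded 1.5-fold as well, beside 4.15% of all probe sets. Against the control, the means of 5 to 7 of the 8 genes were lower in each genotype, beside 47.8% to 54.2% of all probe sets, with medians of the 8 between -0.16 and -0.04. This rested on control replicate 3. Without it 3 to 5 of the 8 were lower, beside 49.6% to 56.3% of all probe sets, and the medians lay between -0.06 and 0.06. These comparisons share the control arrays.

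**Figure D1:**
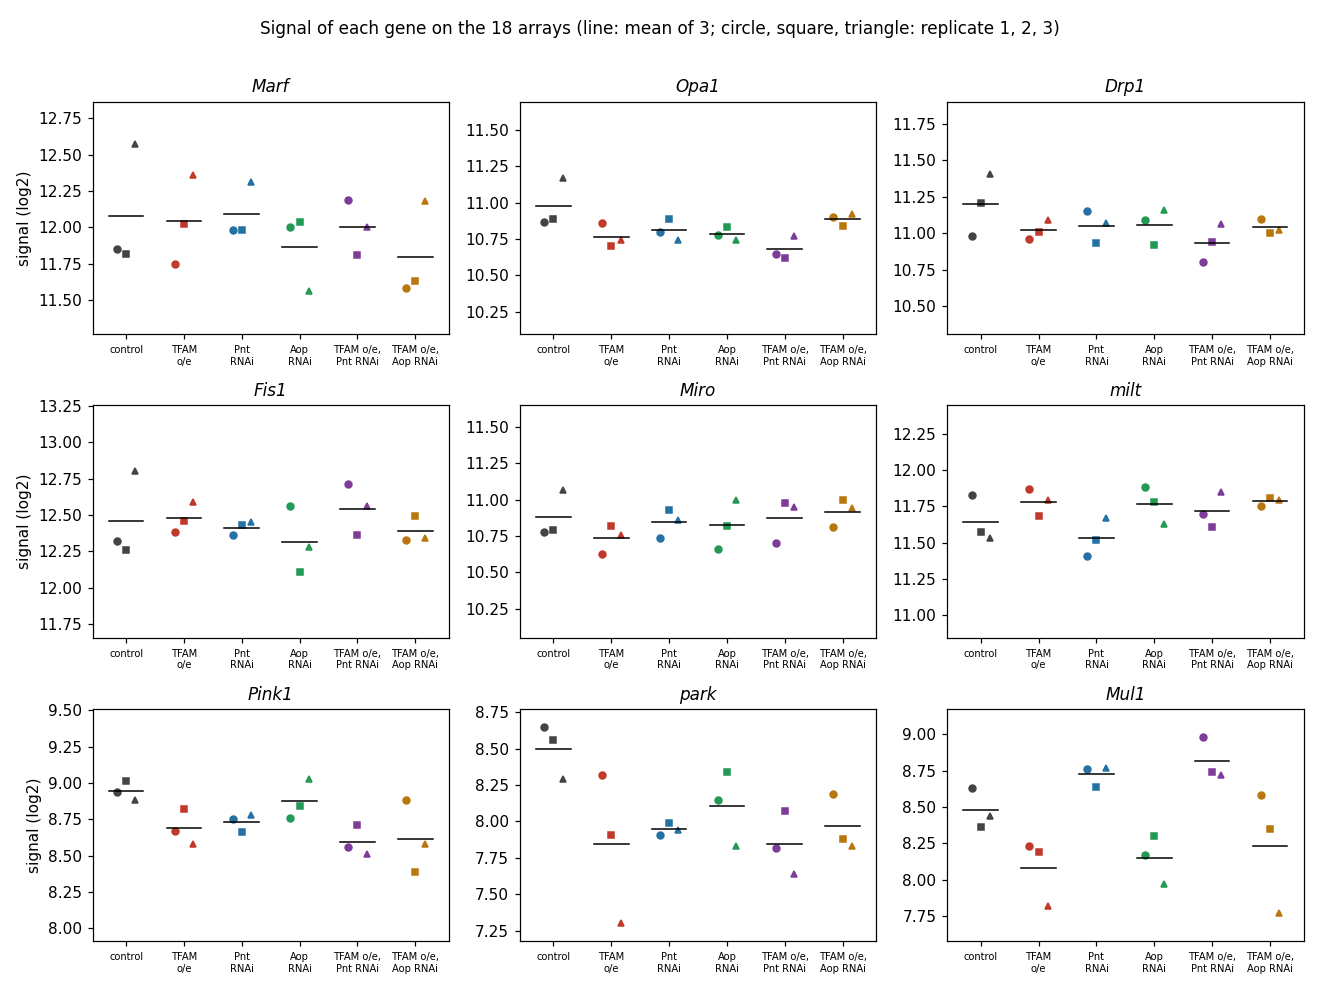
Deposited log2 signal of the 9 genes (y axis) on each of the 18 arrays, by genotype (x axis). Each panel spans the same height around its own middle, each point is an array, and the line is the mean of 3 arrays. The Mul1 points of the arrays labelled Pnt RNAi (8.64 to 8.98) lie above those of the other arrays (7.77 to 8.63), and the triangle of control replicate 3 is the highest point for Marf, Opa1, Drp1, Fis1 and Miro.

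Neither fusion gene was called in any comparison. Marf, the mitofusin that joins outer membranes in most fly tissues, was at 11.85, 11.82 and 12.57 in the control and at 11.75, 12.02 and 12.36 with TFAM o/e. Its other genotypes lay between 11.56 and 12.31, and every genotype overlapped every other it was compared with. Marf was the gene with the widest spread among arrays of a genotype (SD 0.297), its 95% intervals reached 0.46 to either side, and its largest difference was -0.28 (standard error 0.22), for TFAM o/e, Aop RNAi against the control, with a limma adjusted p of 0.974.

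Opa1, the dynamin-like GTPase that fuses inner membranes and maintains cristae, was at 10.87, 10.89 and 11.17 in the control. It was at 10.65, 10.62 and 10.77 with TFAM o/e, Pnt RNAi, the lowest genotype mean (10.68 ± 0.08, SD, n = 3, against 10.98 ± 0.17 in the control). These arrays did not overlap with the control, and the arrays of TFAM o/e (10.70 to 10.86) and Aop RNAi (10.74 to 10.83) lay below the control as well. The difference between TFAM o/e, Pnt RNAi and the control was -0.30 (standard error 0.11, unadjusted p = 0.0162, limma adjusted p = 0.473). Without control replicate 3, which gave the highest Opa1 signal of all arrays, it was -0.20 (limma adjusted p = 0.624). Opa1 also had the largest statistic among the 8 genes for the interaction of TFAM o/e with Aop RNAi, at 0.31 (standard error 0.16, limma adjusted p = 1).

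Neither fission gene was called. Drp1, the dynamin-related GTPase that constricts mitochondria, was at 10.98, 11.21 and 11.41 in the control and at 10.80, 10.94 and 11.06 with TFAM o/e, Pnt RNAi. The highest of these latter arrays overlapped the lowest control array. The difference was -0.27 (standard error 0.13, unadjusted p = 0.0498, limma adjusted p = 0.588), and -0.16 without control replicate 3. The other 4 genotypes had Drp1 means within 11.02 to 11.06.

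Fis1, the outer membrane protein that serves as a receptor for the fission machinery in yeast, was at 12.32, 12.26 and 12.80 in the control and at 12.38, 12.46 and 12.59 with TFAM o/e. All pairs of genotypes overlapped, and its 9 differences lay between -0.14 and 0.13. A second Fis1 probe set, at 9.72 to 11.23, varied more among arrays of a genotype (SD 0.466, against 0.179).

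The array that stood apart carried the highest signal for several of these genes. Control replicate 3 had the highest of 18 values for 5 of the 8 genes (Marf, Opa1, Drp1, Fis1 and Miro), and for 13.4% of the probe sets with a mean log2 of at least 7. That array also had the lowest value for 22.5% of those probe sets, but for 0 of the 8 genes. The part of this array's other features in its high signals was not tested.

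Neither gene of mitochondrial transport was called. Miro, the outer membrane GTPase that couples mitochondria to motors, was at 10.78, 10.79 and 11.07 in the control and at 10.63, 10.82 and 10.76 with TFAM o/e. Its 6 genotype means spanned 0.18, the least of the 8 genes, and the arrays of all compared genotypes overlapped. Miro had the largest statistic of the 8 genes between TFAM o/e, Aop RNAi and TFAM o/e, where it was higher by 0.18 (standard error 0.13, limma adjusted p = 1).

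The gene milt encodes Milton, the adaptor between Miro and kinesin. Its brightest probe set was at 11.83, 11.57 and 11.53 in the control, and at 11.87, 11.68 and 11.79 with TFAM o/e. Its lowest genotype was Pnt RNAi at 11.41, 11.52 and 11.67, which overlapped the 11.70, 11.61 and 11.85 of TFAM o/e, Pnt RNAi. That pair differed by 0.19 (standard error 0.13, limma adjusted p = 0.852), the largest statistic among the 8 genes for that comparison. The other milt probe sets were dim, at 6.47 to 7.51 for one and at 0 to 1.82 for the other, which was at 0 on every control array, and both gave differences of opposite sign for this pair (-0.06 and -0.63).

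The mitophagy genes Pink1 and Mul1 gave 4 of the 6 differences with an unadjusted p under 0.05, and none was called. Pink1, the kinase that accumulates on damaged mitochondria and recruits Parkin, was at 8.94, 9.01 and 8.88 in the control. It was at 8.67, 8.82 and 8.58 with TFAM o/e and at 8.56, 8.71 and 8.51 with TFAM o/e, Pnt RNAi. With TFAM o/e, Aop RNAi it was at 8.88, 8.39 and 8.58. The arrays of TFAM o/e, those of TFAM o/e, Pnt RNAi, and those of Pnt RNAi (8.66 to 8.78) lay below every control array, while those of TFAM o/e, Aop RNAi reached the lowest control value. These comparisons share the control arrays, and the share of all probe sets without overlap was not counted.

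With TFAM o/e averaged over its 3 backgrounds, Pink1 was at -0.22 in log2 units (standard error 0.08, unadjusted p = 0.015, limma adjusted p = 0.484), a fold of 1.16. In that comparison 7.64% of all probe sets had an unadjusted p under 0.05. Against the control, Pink1 was at -0.35 in the TFAM o/e, Pnt RNAi arrays (standard error 0.14, unadjusted p = 0.022, limma adjusted p = 0.508). It was at -0.33 in the TFAM o/e, Aop RNAi arrays (unadjusted p = 0.031, limma adjusted p = 0.746), or at -0.21 without replicate 2 of that combination and -0.46 without its replicate 1. TFAM o/e alone gave -0.25 (unadjusted p = 0.0864).

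Pink1 was also the gene with the largest statistic of the 8 for Pnt RNAi against the control, at -0.21 (standard error 0.14, limma adjusted p = 0.786), and for TFAM o/e, Aop RNAi against Aop RNAi, at -0.26 (limma adjusted p = 1). Leaving out replicate 2 of TFAM o/e, Aop RNAi changed the latter to -0.15, and leaving out its replicate 1 to -0.39. In the Aop RNAi arrays Pink1 was at 8.76, 8.84 and 9.03, which overlapped the control.

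The ubiquitin ligase Parkin, encoded by park, is activated by Pink1. Its probe set was at 8.65, 8.56 and 8.29 in the control, at 8.32, 7.91 and 7.30 with TFAM o/e and at 7.91, 7.99 and 7.94 with Pnt RNAi. It was at 8.15, 8.34 and 7.83 with Aop RNAi and at 7.82, 8.07 and 7.64 with TFAM o/e, Pnt RNAi. The TFAM o/e, Aop RNAi arrays were at 8.19, 7.88 and 7.83. The control mean was the highest of the 6, and the arrays of 3 genotypes lay wholly below the control, while those of TFAM o/e and Aop RNAi reached its lowest array.

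Because the probe set was named through lists made from these contrasts, the differences of park from the control are a description. They were -0.66 with TFAM o/e, -0.55 with Pnt RNAi and -0.39 for Aop RNAi. The combinations gave -0.66 (TFAM o/e, Pnt RNAi) and, with the other hairpin, -0.53 (TFAM o/e, Aop RNAi). The value for TFAM o/e rested in part on its replicate 3, without which it was -0.39, and the Aop RNAi value was -0.26 without Aop RNAi replicate 3. In the 4 comparisons that do not use the control, park differed by 0.00 and 0.12 when Pnt RNAi or Aop RNAi was added to TFAM o/e (standard error 0.22). It differed by -0.10 and -0.14 when TFAM o/e was added to Pnt RNAi or Aop RNAi, and none of these 4 was called by limma (adjusted p = 0.958 to 1).

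Mul1, a ubiquitin ligase of the outer membrane that in flies acts on mitofusin in parallel to Pink1 and Parkin, varied most by genotype of the 8 genes. It was at 8.63, 8.36 and 8.44 in the control, at 8.23, 8.19 and 7.82 with TFAM o/e and at 8.17, 8.30 and 7.97 with Aop RNAi. It was at 8.76, 8.64 and 8.77 with Pnt RNAi, and at 8.98, 8.74 and 8.72 with TFAM o/e, Pnt RNAi. The TFAM o/e, Aop RNAi arrays were at 8.58, 8.35 and 7.77. The 6 arrays labelled Pnt RNAi, with or without TFAM o/e, lay above the other 12 (8.64 to 8.98 against 7.77 to 8.63), with 8.63 and 8.64 as the nearest values. This split was made for Mul1 alone, and the share of all probe sets that split in the same way was not counted.

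In the order of genotype means, Mul1 was lowest with TFAM o/e (8.08 ± 0.23, SD, n = 3), followed by Aop RNAi (8.15 ± 0.17), TFAM o/e, Aop RNAi (8.23 ± 0.42), the control (8.48 ± 0.14), Pnt RNAi (8.72 ± 0.07) and TFAM o/e, Pnt RNAi (8.81 ± 0.14). Neighbours in this order overlapped, except the control and Pnt RNAi. In the F test Mul1 had the lowest p of the genes (unadjusted p = 0.00288, limma adjusted p = 0.181), and 1 of 8 had an unadjusted p under 0.05, beside 6.49% of all probe sets. With a block for the replicate number, the lowest limma adjusted p of the 8 genes in this test was 0.0532.

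The largest Mul1 difference was found when Pnt RNAi was added to TFAM o/e. In log2 units it was 0.73 (standard error 0.19, 95% interval 0.34 to 1.12), a fold of 1.66, with all 3 arrays of TFAM o/e, Pnt RNAi above all 3 of TFAM o/e (unadjusted p = 0.000907, limma adjusted p = 0.264). It was the 1 difference of the 72 past both 1.5-fold and an unadjusted p under 0.05, which 3.75% of all probe sets also passed in this comparison. Without TFAM o/e replicate 3 it was 0.60 (limma adjusted p = 0.78), and blocking on the replicate number gave a limma adjusted p of 0.0965.

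Other Mul1 differences were smaller. Relative to the control, TFAM o/e was at -0.40 (standard error 0.19, unadjusted p = 0.0461, limma adjusted p = 0.896), and Aop RNAi at -0.33 (limma adjusted p = 0.932), both without overlap between the arrays. Pnt RNAi was above the control by 0.25 (limma adjusted p = 0.811), and TFAM o/e, Pnt RNAi by 0.34 (limma adjusted p = 0.662). Adding TFAM o/e to Pnt RNAi left a difference of 0.09 with a 95% interval from -0.30 to 0.48. The interaction of TFAM o/e with Pnt RNAi was 0.49 (standard error 0.26, unadjusted p = 0.0796, limma adjusted p = 0.96).

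The effect of Pnt RNAi averaged over the backgrounds with and without TFAM o/e was computed after the Mul1 values had been seen. It was 0.49 for Mul1 (standard error 0.13, unadjusted p = 0.00148, limma adjusted p = 0.2), and 0 of 8 genes passed, beside 0.304% of all probe sets. Mul1 was the single gene of the 8 with an unadjusted p under 0.05, beside 6.78% of all probe sets.

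**Figure D2:**
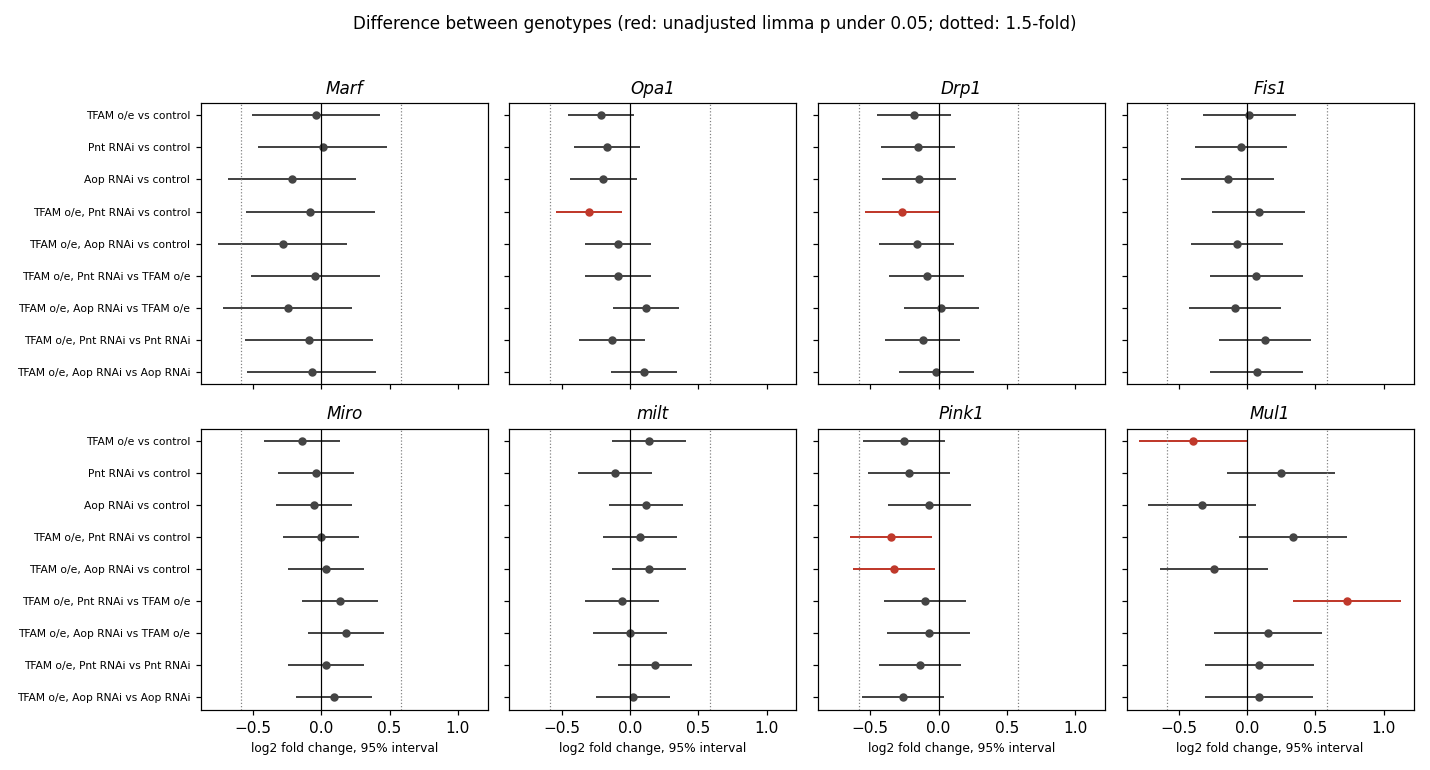
Log2 fold change between genotypes (x axis) for the 8 genes named by the rule in the 9 pairs of genotypes (y axis). Points are limma estimates, bars are 95% intervals, red marks an unadjusted p under 0.05 and dotted lines mark 1.5-fold. A total of 6 of the 72 differences are red, and the Mul1 difference on adding Pnt RNAi to TFAM o/e (0.73) is the one beyond 1.5-fold.

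The probe sets whose pattern over the 18 arrays was most like that of Mul1 were those of CG6013 (Pearson r = 0.885, Spearman rho = 0.886), CG4686 (r = 0.845), Psf1 (r = 0.827), hng3 (r = 0.814) and CalpC (r = 0.811). They were taken by r from 7471 probe sets after each array was centred on its median. Psf1 encodes a subunit of the GINS complex of DNA replication, and CalpC encodes a member of the calpain family. Means with Pnt RNAi and in the control were 8.63 and 7.38 for CalpC, 8.92 and 8.03 for hng3, and 10.57 and 10.16 for CG6013. For CG4686 (10.80 and 10.88) and Psf1 (8.15 and 8.19) the Pnt RNAi mean was the lower one. The points share arrays and genotypes. Among arrays of the same genotype r was 0.803 for CG6013 and 0.566 for hng3.

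**Figure D3:**
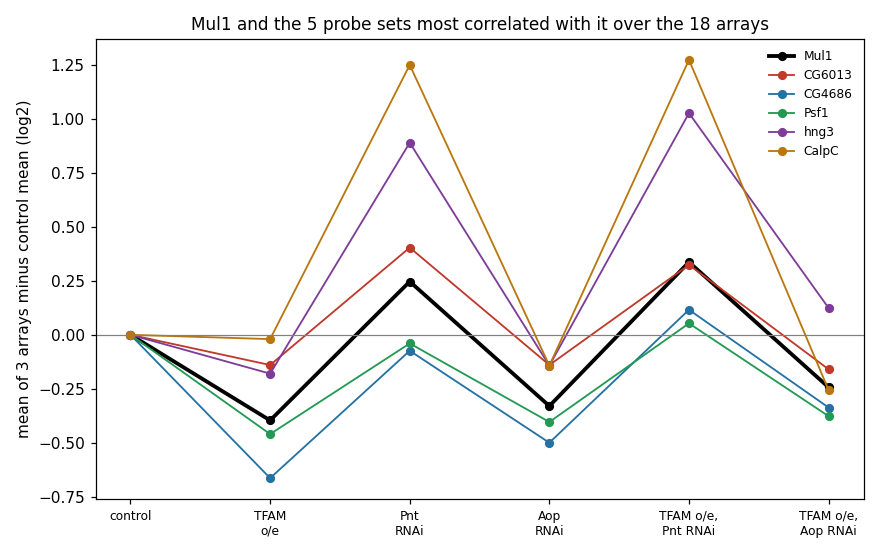
Mean log2 signal of 3 arrays minus the control mean (y axis) in the 6 genotypes (x axis) for Mul1 and the 5 probe sets most correlated with it. Lines only join the points of a gene. Mul1 is at -0.40 with TFAM o/e, at 0.25 with Pnt RNAi and at 0.34 with TFAM o/e, Pnt RNAi.

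Among the 8 genes themselves, 28 pairs were compared over the same centred arrays. The highest correlation was between Opa1 and Drp1 (r = 0.845, rho = 0.787, n = 18). It was 0.825 without control replicate 3, 0.685 without the 2 arrays farthest from the Opa1 median, and 0.86 among arrays of the same genotype. Mul1 had its highest correlation with Fis1 (r = 0.394), and the other 6 lay between 0.113 and 0.257. Among arrays of the same genotype the order differed. There Mul1 had r = 0.588 with milt, 0.575 with Pink1 and 0.398 with Fis1, and its lowest r was -0.095, with Marf. These are descriptions of arrays that share genotypes, and the variation that Opa1 and Drp1 shared was present within genotypes.

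The partners of these genes were described from 5 lists. Of the fission and fusion partners 6 of 7 genes had a probe set, of the motors and adaptors of mitochondrial transport 4 of 5, of the genes of cristae organisation 5 of 6, of the partners in mitophagy and quality control 19 of 20, and of core autophagy 16 of 16. With TFAM o/e averaged over its 3 backgrounds, limma called none higher in any list and 1 lower, DJ-1alpha, beside 0.543% of all probe sets called in either direction. The list medians were 0.00, -0.07, 0.03, -0.02 and -0.01 on the log2 scale, beside -0.03 for all probe sets. In the F test 0 genes of the lists were called, beside 0.783% of all probe sets.

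**Figure D4:**
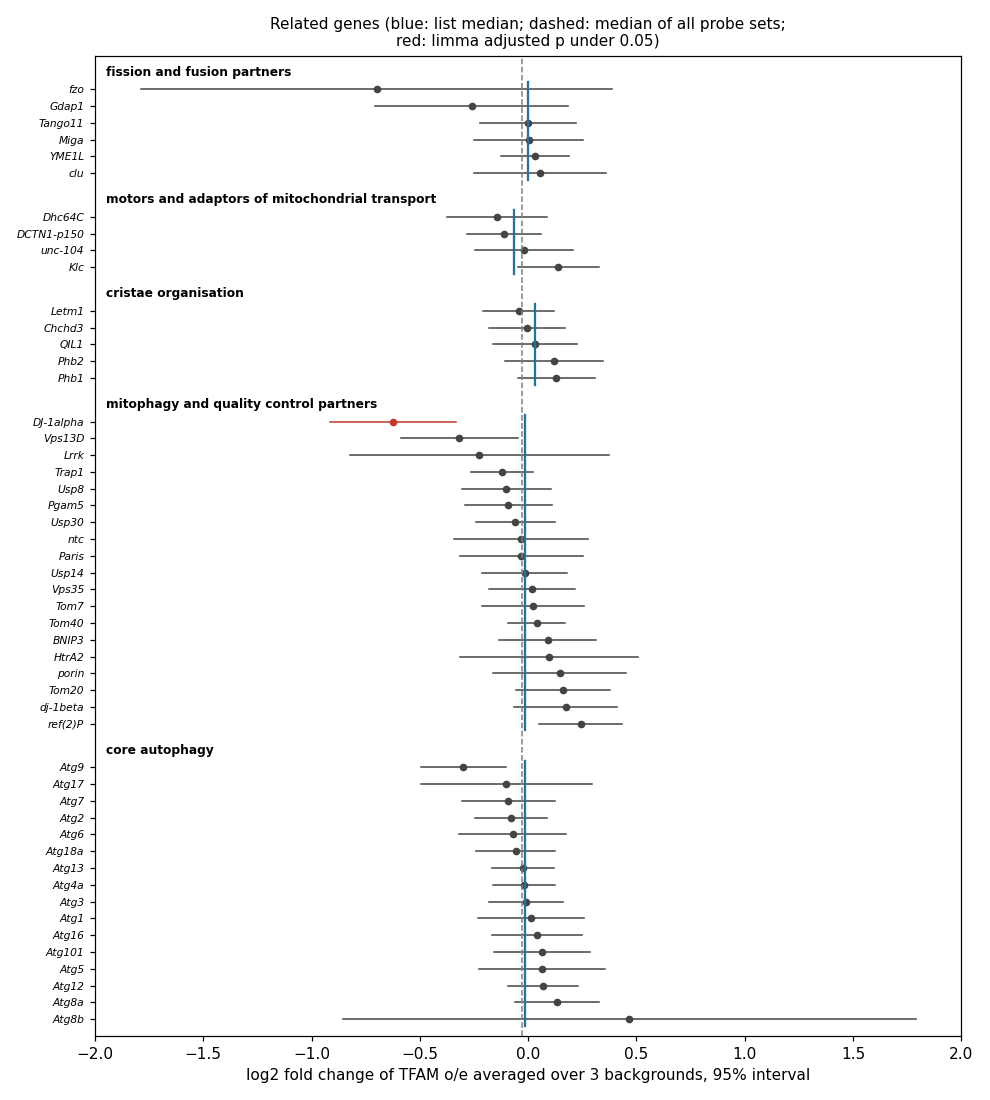
Log2 fold change of TFAM o/e averaged over 3 backgrounds (x axis) for the genes of the 5 lists (y axis), with 95% intervals. Blue lines are list medians, the dashed line is the median of all probe sets (-0.03), and red marks the 1 call, DJ-1alpha at -0.62.

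DJ-1alpha is a fly counterpart of the human Parkinson's disease gene DJ-1 and is expressed mainly in the testis. Its probe set was at 6.69, 7.03 and 7.31 in the control, at 6.75 to 7.09 with Pnt RNAi and at 7.15, 7.27 and 7.24 with Aop RNAi. It was at 6.68, 6.48 and 6.53 with TFAM o/e, and at 6.05, 6.64 and 6.83 with TFAM o/e, Pnt RNAi. The TFAM o/e, Aop RNAi arrays were at 6.34, 5.93 and 6.43. Of the arrays with TFAM o/e, 1 overlapped the lowest arrays without it.

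Averaged over the 3 backgrounds DJ-1alpha fell by 0.62 in log2 units (standard error 0.14, limma adjusted p = 0.0493). The call was lost under 20 of 24 alternative settings, with adjusted p up to 0.262, and without control replicate 3 the difference was -0.57 (limma adjusted p = 0.0793). The 6 testis markers, at most 1 of which was at 0 on an array, summed to log2 signals of 7.76 to 12.1 in the control, 5.86 to 6.75 with Pnt RNAi and 5.59 to 6.57 in the Aop RNAi arrays. With TFAM o/e they summed to 5.97 to 9.96, and in the combinations to 5.89 to 8.19 (TFAM o/e, Pnt RNAi) and, with the other hairpin, to 6.04 to 8.39 (TFAM o/e, Aop RNAi). The highest means of DJ-1alpha were those of Aop RNAi (7.22) and the control (7.01). Control replicate 3 was the highest array both for DJ-1alpha (7.31) and for the testis sum (12.1), and the lowest testis sum (5.59) was that of an Aop RNAi array. The part of testis RNA in the DJ-1alpha difference was not tested.

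The mitofusin of the male germ line, fzo, was near the bottom of the scale. It was at 2.87, 3.30 and 5.16 in the control, the highest value again in control replicate 3, and at 1.26, 0.68 and 3.29 with TFAM o/e. Those groups overlapped, and control replicate 3 was the only array with a log2 signal above 5. The difference of TFAM o/e was -2.03 against the control and -1.31 within Aop RNAi, but 1.25 within Pnt RNAi, and none was called by limma (adjusted p = 0.854 to 1).

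**Figure D5:**
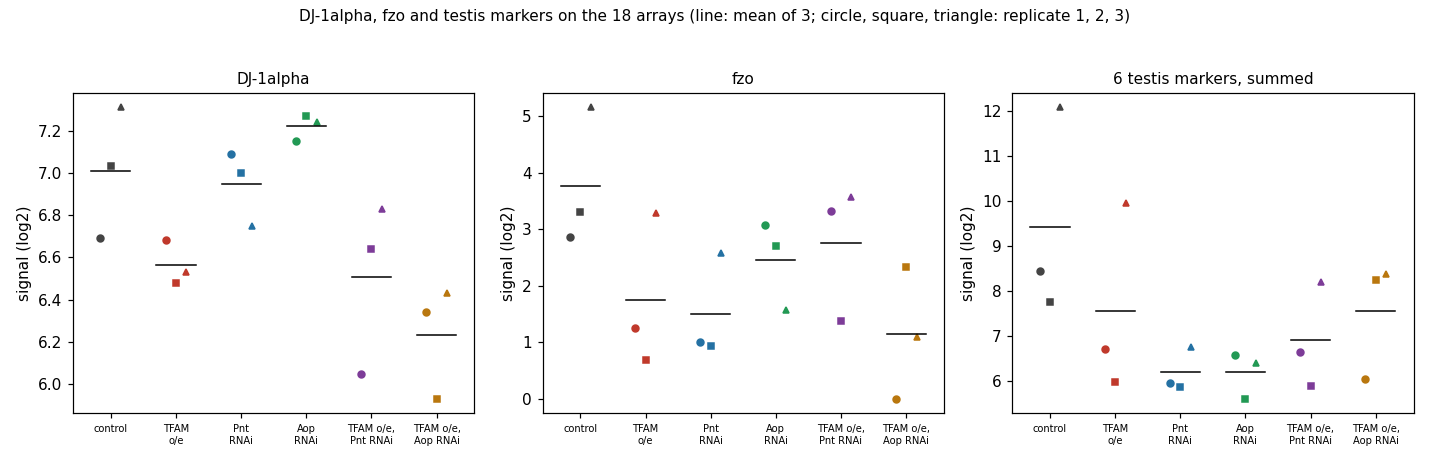
Log2 signal of DJ-1alpha and fzo and the log2 of the summed signal of 6 testis markers (y axes, each on its own scale) on the 18 arrays by genotype (x axes). Points are arrays and lines are means of 3. Control replicate 3 is highest for all 3 (7.31, 5.16 and 12.1).

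Further genes of the lists reached an unadjusted p under 0.05 without being called. In the TFAM o/e average, limma gave such a p to 3 of 19 partners in mitophagy and quality control, DJ-1alpha included. It did so for 1 of 16 core autophagy genes and 0 in the other lists, beside 7.64% of all probe sets. The F test gave the same counts in these lists, beside 6.49% of all probe sets. With TFAM o/e averaged, ref(2)P, the fly p62 adaptor that links ubiquitinated cargo to autophagosomes, was at 0.24 (standard error 0.09, limma adjusted p = 0.487). Vps13D, a lipid transfer protein needed for clearance of mitochondria in the fly intestine, was at -0.32 (standard error 0.13, limma adjusted p = 0.534), and Atg9, the transmembrane protein of early autophagosomes, at -0.30 (standard error 0.09, limma adjusted p = 0.321). In the F test, Lrrk, the fly counterpart of the Parkinson's disease kinase LRRK2, had a limma adjusted p of 0.459 and ntc, which encodes an F-box protein, of 0.646.

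Values of Lrrk were widely spread, at 7.25, 6.80 and 5.00 in the control, the lowest in control replicate 3, and at 5.26, 5.75 and 5.32 with Aop RNAi. With TFAM o/e, Aop RNAi they were 4.01, 5.52 and 5.35, and with TFAM o/e they were 7.14, 6.03 and 6.31. The arrays of TFAM o/e, Aop RNAi lay below those of TFAM o/e, and both genotypes with Aop RNAi overlapped the control only through its replicate 3.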

How the data were processed

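RNA of 18 larval CNS samples, 3 per genotype as labelled, was hybridised to Affymetrix Drosophila Genome 2.0 arrays. The authors made the log2 values with the MAS5.0 algorithm in the Transcriptome Analysis Console, and these deposited log2 signals entered the fit as they stand. Columns were taken by the label of each array, and none was left unmapped. MAS5.0 scales each array separately, and 49.2% of probe sets had a mean under 5, where signals are noisy. Array medians were 5.03 to 5.56.

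Of 18952 probe sets, 183 controls were left out and 18769 were tested unfiltered. By the platform annotation 13646 had 1 symbol, 402 several and 4721 none, with symbols updated by Entrez identifier. The probe set with the highest mean stood for a gene. The probe sets of park and pnt were named through the study's supplementary tables, whose values were not used.

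Group means of 6 genotypes were fitted in limma 3.58.1 (R 4.3.3) with an intensity trend and Benjamini-Hochberg adjustment over all probe sets, threshold 0.05. The labels give replicates as separate RNA samples. The limma p-values rest on a single spread per probe set, pooled over the replicates of all 6 genotypes and moderated across probe sets. They do not measure the spread of the compared genotypes alone. The script was tested on simulated data with independent noise on each array. Features shared by arrays of a replicate number were therefore not part of that test. The genes, lists and comparisons were chosen with earlier results of these data known, and the average of Pnt RNAi over its backgrounds was added after the values were seen. Values are given for every gene, tests for the gene with the largest statistic in a comparison and for unadjusted p under 0.05, and at most 4 genes per list with such a p in the F test or the TFAM o/e average. DJ-1alpha was examined under the alternatives after its call was seen, and fzo was named after its values were seen.

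Alternatives covered the scaling (median centring or quantile normalization), dim probe sets (a floor at a signal of 32, or dropping those with a mean log2 under 6) and the fit (the compared arrays alone, a block for the replicate number, or no intensity trend). The test of the study's methods, the other probe sets of a gene and the omission of single arrays were tried too. Whether replicate numbers pair the arrays was checked by residual correlations over 8582 probe sets. All 3 numbers exceeded 0.1 only when the arrays of TFAM o/e, Pnt RNAi were set against control arrays (0.171, 0.268, 0.233) or TFAM o/e arrays (0.335, 0.177, 0.429). The other pairs ran from -0.139 (TFAM o/e against the control, replicate 2) to 0.469 (Aop RNAi against the control, replicate 2). Arrays of different numbers were not correlated, so these values do not settle which pairs of genotypes are paired by number. The labels do not state a pairing, and the main fit used no block. Plots were made in Python 3.11.15 with matplotlib 3.10.9.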

Additional observations from a re-analysis of the deposited data

How the results depend on the processing

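Counts of called genes were 0 of 8 in the 13 planned comparisons and in the added Pnt RNAi average under all alternatives run, and the lowest limma adjusted p they gave was 0.0532, in the F test with the replicate block. At an unadjusted p under 0.05 with 1.5-fold, the count stayed at 1 of 8 for TFAM o/e, Pnt RNAi against TFAM o/e and at 0 for the other 8 pairs. These 23 counts did not change under 591 alternatives. Among 21 single values, 519 of 541 alternatives kept the direction and the side of the threshold, 20 ended the call of DJ-1alpha in the TFAM o/e average (over its 24 alternatives the adjusted p was 0.0326 to 0.262 and the difference -0.68 to -0.55), and 2 turned the sign of milt between TFAM o/e, Pnt RNAi and Pnt RNAi (0.19), which was -0.06 and -0.63 by its other, dim probe sets. The cause was not tested.

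Leaving out each array in turn gave -0.47 to -0.27 for Mul1 in TFAM o/e against the control, 0.60 to 0.81 in TFAM o/e, Pnt RNAi against TFAM o/e, and -0.26 to -0.18 for Pink1 in the TFAM o/e average. With the replicate number as a block 0 of 8 genes were called, Mul1 had a limma adjusted p of 0.0709 in the added Pnt RNAi average, and DJ-1alpha kept its call (adjusted p = 0.0425). The labels do not say what a shared number means, but arrays of a number shared features: replicate 3 had the lowest sum of ring gland and of neuron markers, and replicate 1 the highest sum of ring gland markers, in all 6 genotypes. Replicate 3 also had the highest sum of testis markers in 5 of the 6 genotypes. What the number stands for was not tested. With 3 arrays per genotype, the 95% intervals reached 0.23 (Opa1) to 0.46 (Marf) to either side, and dim probe sets have only poorly measured levels.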
